A study of Rattus norvegicus with 70 samples.

Results

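The genes described here were 40 genes of spermatids and sperm, marked by the transition protein gene Tnp1, and were chosen by symbol from the deposited gene table. Of these, 39 were matched among 17048 gene rows, and Catsper1 was not analysed here. Expression had been measured by 3′ end RNA sequencing (QuantSeq) in testis, kidney, thyroid, liver and ovary of Sprague-Dawley rats on postnatal day 63. Dams had been dosed by mouth, starting on gestational day 6 and ending on lactation day 6, with a vehicle control, with bisphenol A (BPA) at 500 mg/kg/day, or with a mixture (Mix) of BPA at 160, bisphenol F at 160 and bisphenol S at 180 mg/kg/day. Their pups, culled on postnatal day 4 to 3 of each sex per dam, received what the dam had received at 250 mg/kg/day in all from postnatal day 7 to 63. No genetic change is named in the labels, and the make-up of the vehicle is not given in the sources used here. Each combination of organ, sex and treatment held 3 libraries, except female kidney with 2 vehicle and 2 BPA libraries, which made 70 libraries in all. Animal codes recurred between organs, so the organs came from the same rats. Which rats were littermates is not given in the sources used here, so each rat was counted as independent.

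Spermatids are the haploid germ cells that meiosis leaves in the seminiferous tubules. They replace histones first by transition proteins and then by protamines, build the acrosome over the nucleus and assemble the tail. Much of the mRNA for these steps is made early, stored and translated later. The testis is the main known site of most of these transcripts in the rat, and kidney, thyroid, liver and ovary are not known as sites of transition protein or protamine expression.

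Library totals ran from 4803807 to 10929957 counts. Levels are given as CPM, a gene's counts scaled to a common library total. Since QuantSeq reads transcript ends, values were not divided by gene length, and levels of different genes are set side by side only as end counts. The share of counts on ribosomal RNA genes differed between libraries. It was 1.28 to 6.38% in testis, and in male kidney it was 1.71 to 3.50% with vehicle, 16.4 to 37.2% with BPA and 1.42 to 20.2% with Mix.

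The start regions of 3 members that the results below turn on are shown first: Tnp1, the most abundant member, Prm1, the member with the smallest adjusted p in male kidney, and Pdilt, the member that differed in testis. The sequences are those of RefSeq for build GRCr8, from 250 bases before to 50 bases after the gene start, read 5′ to 3′ along the gene. Capitals mark the cAMP response element TGACGTCA, its shorter core TGACG (which the full element contains) and the letters TATAAA, all searched on both strands. The regions lie at chr9:82044229-82044528 on the minus strand for Tnp1, chr10:5378490-5378789 on the plus strand for Prm1 and chr1:183299973-183300272 on the minus strand for Pdilt.
Tnp1: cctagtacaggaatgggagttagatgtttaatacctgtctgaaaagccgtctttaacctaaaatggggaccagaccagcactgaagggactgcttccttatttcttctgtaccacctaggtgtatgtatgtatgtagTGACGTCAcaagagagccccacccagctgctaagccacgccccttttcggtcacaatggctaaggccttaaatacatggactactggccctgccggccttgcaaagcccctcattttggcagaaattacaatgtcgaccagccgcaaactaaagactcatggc
Prm1: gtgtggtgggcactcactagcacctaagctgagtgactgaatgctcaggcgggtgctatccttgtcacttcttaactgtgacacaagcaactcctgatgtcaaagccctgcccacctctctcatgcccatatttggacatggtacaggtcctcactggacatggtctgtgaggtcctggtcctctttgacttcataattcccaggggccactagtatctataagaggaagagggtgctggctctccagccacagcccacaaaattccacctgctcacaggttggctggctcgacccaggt
Pdilt: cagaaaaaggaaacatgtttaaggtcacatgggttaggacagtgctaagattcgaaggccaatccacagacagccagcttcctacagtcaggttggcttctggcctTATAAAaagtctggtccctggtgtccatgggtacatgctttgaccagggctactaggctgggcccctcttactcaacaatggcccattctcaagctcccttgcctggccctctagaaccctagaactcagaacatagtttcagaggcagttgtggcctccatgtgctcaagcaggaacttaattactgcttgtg

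The Tnp1 region holds the full element, the Pdilt region holds TATAAA starting 144 bases before the gene start, and the Prm1 region holds none of these motifs. Of the 36 members matched to a start region, 2 held TGACGTCA, Tnp1 and Izumo1, which is 5.56% against 1.83% of all 33469 regions of this length. The core was in 12 of the 36, or 33.3% against 21.2% of all regions. TATAAA was in 2, Cabyr and Pdilt, or 5.56% against 14.2%. Prm2, Odf1 and Gsg1 were not matched. A match describes letters in this window and shows no binding.

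In testis the 39 members were detected in all 9 libraries and together took 9.14 to 11.3% of a library's counts. Tnp1 alone made up 42.7% of the member counts and stood at 43927, 41942 and 41313 CPM in the vehicle, 39999, 49758 and 54503 CPM in the BPA and 51684, 33516 and 35304 CPM in the Mix libraries. The 3 vehicle libraries lay close together, and both the BPA and the Mix libraries reached above and below them. Next in level were Oaz3, which encodes an antizyme of germ cells, Gsg1, a germ cell gene, Odf1, a protein of the outer dense fibres of the tail, and Crisp2, a protein of the acrosome and tail. Oaz3 had 7868, 7525 and 7538 CPM in the vehicle, 7942, 7586 and 8160.5 CPM in the BPA and 8010.3, 8260 and 7068 CPM in the Mix libraries. For Gsg1 the values were 7059, 5889 and 6121 CPM in the vehicle, 5779.9, 6662 and 7395 CPM in the BPA and 6063, 7234 and 5500.1 CPM in the Mix libraries. Odf1 ran at 5244, 5489.6 and 5327 CPM in the vehicle, 5742, 5280 and 5767 CPM in the BPA and 5786, 6236 and 5102 CPM in the Mix libraries. These genes, each within a narrow band, showed overlapping treatment groups. Crisp2 was also steady, at 4921, 4344 and 4777 CPM in the vehicle, 4199, 4442 and 4347 CPM in the BPA and 4864, 4107 and 4504 CPM in the Mix libraries.

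Levels below are means ± SD over the 9 testis libraries of all treatments. Among the proteins that package the nucleus, Tnp1 was at 43550 ± 7191 CPM, the second transition protein gene Tnp2 at 2568 ± 448 CPM, and the protamine genes Prm1 and Prm2 at 3061 ± 929.9 and 128.12 ± 53.1 CPM. Of the tail genes, Odf1 and Odf2 (outer dense fibres) were at 5553 ± 359 and 4162 ± 397 CPM. The fibrous sheath scaffolds Akap3 and Akap4 were at 1567 ± 118 and 1163 ± 84.1 CPM, and the sheath proteins Ropn1 and Cabyr at 954 ± 127.97 and 334 ± 19.9 CPM. The axonemal tektins Tekt1 and Tekt2 stood at 432 ± 40.8 and 395 ± 66.7 CPM. Meig1 and Spem1, which mouse spermatids need to form the tail and to shed cytoplasm, were at 1746 ± 141 and 656 ± 63.1 CPM. The level of Tssk2, a kinase of spermatids, was 703 ± 63.0 CPM.

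Energy metabolism was represented by the sperm forms of glycolytic enzymes, Pgk2 at 706 ± 49.9, Gapdhs at 1817 ± 132 and Ldhc at 1281 ± 157 CPM, and by the mitochondrial genes Smcp at 3901 ± 655 and Spata19 at 516 ± 54.9 CPM. Acrosome genes spanned a wide range. Dkkl1 had 3104 ± 278, the protease acrosin (Acr) 475 ± 136, its binding protein Acrbp 536 ± 52.0 and Spaca1 245 ± 24.5 CPM. The zona pellucida binding proteins Zpbp and Zpbp2 had 288 ± 15.4 and 169 ± 24.7 CPM, and Izumo1, the sperm protein of gamete fusion, 156 ± 7.62 CPM. Among cytoskeletal genes the actin-like Actl7b, Actl7a and Actl11 stood at 769 ± 60.9, 251 ± 14.2 and 187 ± 17.7 CPM, and the actin capping subunit Capza3 at 307 ± 29.8 CPM. The LIM domain gene Fhl4 was at 1212 ± 94.3 and Abhd16b at 118 ± 12.7 CPM. The 3 lowest members were the disulfide isomerase gene Pdilt, Ace3 and the acrosomal vesicle gene Acrv1.

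For Ace3 the libraries held 31.6, 40.6 and 33.8 CPM in the vehicle, 39.6, 29.5 and 28.6 CPM in the BPA and 38.5, 30.2 and 25.4 CPM in the Mix libraries. Acrv1 was at 7.66, 13.2 and 7.53 CPM in the vehicle, 12.4, 4.51 and 6.15 CPM in the BPA and 8.88, 14.6 and 16.5 CPM in the Mix libraries. Both genes overlapped between all treatments. Pdilt is described with the comparisons below.

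**Figure D1:**
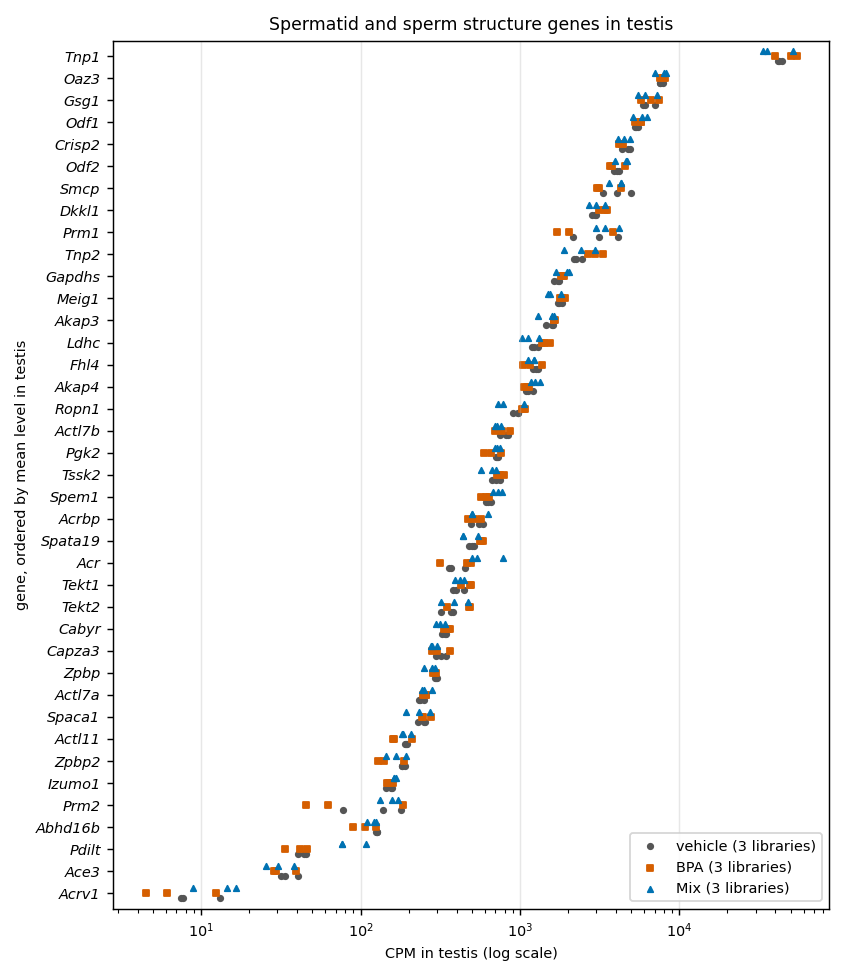
CPM of each of the 39 genes in the 9 testis libraries on a log axis, 1 point per library, with genes ordered by their mean. Most genes keep their 9 points within a narrow band, while Prm1, Prm2, Acr, Pdilt and Acrv1 spread more widely and Pdilt shows its 3 Mix points to the right of the other 6.

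The spread between testis libraries was small for most members: the coefficient of variation was below 15% for 29 and above 25% for 5. The 5 were both protamines, Acr, Pdilt and Acrv1. Prm1 was at 2139, 4129 and 3112 CPM in the vehicle, 3840.4, 1702 and 2019.6 CPM in the BPA and 3416, 3011 and 4182 CPM in the Mix libraries, and Prm2 at 78.0, 180 and 139 CPM in the vehicle, 185, 63.0 and 45.4 CPM in the BPA and 132, 158 and 173 CPM in the Mix libraries. The protamines were high or low in the same libraries, lowest in BPA libraries 2 and 3 and in vehicle library 1, so the spread lay within the vehicle and BPA groups as well as between groups. Tnp1 was highest in BPA library 3, where Prm2 was lowest, and the ratio of Tnp1 to Prm1 CPM ran from 8.44 to 29.2 over the 9 libraries. In bulk tissue fewer cells of a type and less RNA per cell cannot be told apart, and this holds for each value here.

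BPA against vehicle in testis asks whether exposure to BPA alone moved these genes. With edgeR's quasi-likelihood test, adjusted over all genes of the comparison, 0 of the 39 members passed, where 0% of the 11098 genes tested did. Without adjustment 5 members and 1337 of all genes were under 0.05, and DESeq2 also called 0 members. The smallest p-values were those of Tnp2, Ldhc and Tekt1. Tnp2 had 2178, 2442 and 2252 CPM in the vehicle, 2685, 2956 and 3307 CPM in the BPA and 2964, 2431 and 1897 CPM in the Mix libraries, and the 3 BPA libraries were above the 3 vehicle libraries. The Tnp2 difference was 0.45 ± 0.16 on the log2 scale (SE; adjusted p = 0.324). Ldhc, the sperm lactate dehydrogenase, had 1192, 1293 and 1217 CPM in the vehicle, 1548, 1424 and 1374 CPM in the BPA and 1320.2, 1032 and 1131 CPM in the Mix libraries, again with BPA above vehicle, and differed by 0.29 ± 0.12 on the log2 scale (SE; adjusted p = 0.352). Tekt1 had 447, 378 and 394 CPM in the vehicle, 428, 491 and 488 CPM in the BPA and 391, 447 and 418 CPM in the Mix libraries, with overlapping groups, and a difference of 0.27 ± 0.12 on the log2 scale (SE; adjusted p = 0.38). The Tnp1 difference was 0.25 ± 0.19 on the log2 scale (SE; adjusted p = 0.617). The median over the members was 0.06 against -0.0031 over all genes on the log2 scale, and with library totals alone the members' median was -0.0024. Without BPA library 1, Prm2 alone was called, lower in BPA.

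Mix against vehicle asks the same of the 3-compound mixture. Of the 39 members 0 passed, as did 0% of all genes, and 3 members and 591 of all genes had an unadjusted p under 0.05. Pdilt, which encodes a testis disulfide isomerase that acts as a chaperone in mouse sperm formation, had the smallest p of all genes, at 3.4e-05. Its libraries held 45.8, 44.0 and 40.4 CPM in the vehicle, 33.7, 41.9 and 46.0 CPM in the BPA and 76.7, 76.0 and 109 CPM in the Mix libraries. All 3 Mix libraries were above the other 6, and the difference was 1.05 ± 0.17 on the log2 scale (SE; adjusted p = 0.227). DESeq2, and edgeR with no filter on low counts, called Pdilt and no other member. Acr, the acrosomal protease, followed with 359, 453 and 371 CPM in the vehicle, 313, 469 and 495 CPM in the BPA and 498, 779 and 541 CPM in the Mix libraries. Mix was above vehicle in all 3 libraries, by 0.67 ± 0.20 on the log2 scale (SE; adjusted p = 0.724). Spem1 had 609, 662 and 634 CPM in the vehicle, 612, 568 and 642 CPM in the BPA and 772, 729 and 679 CPM in the Mix libraries, also without overlap between Mix and vehicle, and differed by 0.25 ± 0.11 on the log2 scale (SE; adjusted p = 0.934). The Tnp1 difference was -0.02 ± 0.19 on the log2 scale (SE; adjusted p = 0.997). The members' median was 0.04 against 0.0032 over all genes, and -0.0055 with library totals alone.

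Between the treatments, Mix against BPA, 1 member of 39 was called higher, Pdilt, where 0.739% of all genes were called higher, 0.036% lower and 0.775% in either direction. Pdilt was higher with Mix by 1.08 ± 0.17 on the log2 scale (SE; adjusted p = 0.0249), a 2.12-fold difference with a 95% interval of 0.71 to 1.46 on the log2 scale. The comparison shares its Mix libraries with the one against vehicle. The call was lost when vehicle library 3, BPA library 2 or 3, or Mix library 2 or 3 was left out, and when the 2 groups were fitted alone. Without BPA library 1, 4 members were called higher (Pdilt, Prm1, Prm2 and Acrv1), and without Mix library 1 Pdilt was higher while Ropn1, Ldhc and Spata19 were lower. With the ribosomal RNA share as a covariate Prm2 was called as well. The share of all genes called in these omissions and settings is not given here. The members' median was -0.00075 against 0.0029 over all genes.

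Pdilt lies next to Umod, a kidney gene, in the RefSeq annotation of GRCr8, and how reads of neighbouring genes were counted is not given in the sources used here. Umod was looked at after its values were seen: it had 0.385 to 1.14 CPM in the Mix testis libraries and at most 0.206 CPM in the others. The summed level of 5 kidney markers was 8.10 to 9.88 CPM with vehicle, 8.44 to 12.3 with BPA and 14.3 to 23.5 with Mix. Its part in the Pdilt difference was not tested.

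Other genes of the same cells gave few calls in testis. Of 35 other spermatid and sperm tail genes, led in level by the linker histone gene Hils1 at 2306 CPM and by Spata18 at 2091 CPM, 0 were called in any of the 3 comparisons. The same was true of 13 genes for transcription and RNA storage in spermatids, led by Ybx2 and Hmgb4, and of 11 genes of meiotic prophase, led by Sycp3 and Mael. Their medians for BPA against vehicle were 0.10, -0.10 and -0.10 on the log2 scale. For Mix against vehicle they were 0.08, -0.05 and -0.04. Unadjusted, 8, 3 and 2 genes of these lists were under 0.05 for BPA against vehicle and 2, 1 and 0 for Mix against vehicle. Of the markers of Sertoli cells, Leydig cells, spermatogonia, macrophages and vessels, 0 were called by edgeR, with 4 and 3 under 0.05 unadjusted in the comparisons of BPA and Mix with vehicle. The only list gene called was Ccdc40, a gene of motile cilia, higher in Mix than in BPA by 1.04 ± 0.18 on the log2 scale (SE; adjusted p = 0.0277).

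Outside testis, reads of these genes were found in every organ, and libraries of 1 group differed widely. Of 61 libraries 31 had at least 100 counts of Tnp1. Where these reads came from was not tested. Figures for Tnp1 are given below organ by organ, and by group median its order outside testis was female thyroid with vehicle (1509 CPM), male kidney with Mix (968 CPM) and male kidney with vehicle (356 CPM). The ranges of the first pair overlapped, and those of the 2 male kidney groups did not.

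**Figure D2:**
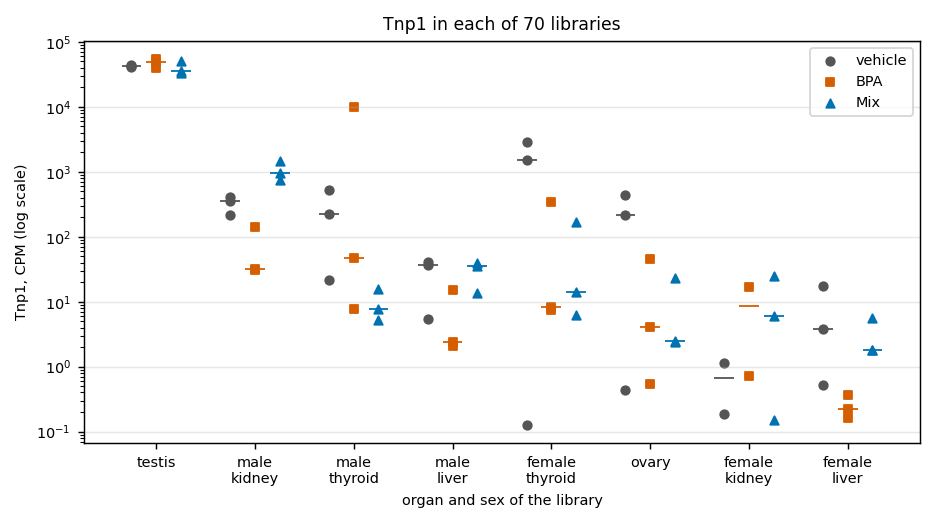
CPM of Tnp1 on a log axis in each of the 70 libraries by organ, sex and treatment, with a short line at each group's median. The 9 testis points sit between 33516 and 54503 CPM, and the other organs run from 0.126 to 9908 CPM with groups that mostly overlap; in male kidney the Mix points lie above and the BPA points below the vehicle points.

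In male kidney most members were higher in the Mix libraries than in the BPA libraries, with vehicle between them. Tnp1 was at 404, 220.1 and 356 CPM in the vehicle, 143, 32.4 and 30.5 CPM in the BPA and 1462, 751 and 968 CPM in the Mix libraries, so the 3 groups did not overlap. The summed members stood at 0.587 to 1.17% of their vehicle testis level with vehicle, 0.107 to 0.425% with BPA and 1.96 to 3.66% with Mix. Of the 39 members 37 passed the filter on low counts, all but Acrv1 and Ace3.

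For Mix against BPA in male kidney, 24 of the 37 members were called higher and 0 lower, where 2.57% of the 11000 genes tested were called higher, 0.355% lower and 2.93% in either direction. Some members may have passed the filter only through the Mix libraries. With no filter 28 of all 39 were called. All 37 log2 differences were above 0, with a median of 3.39 against 0.0062 over all genes. Members share their libraries, so neither the signs nor the calls are separate evidence from member to member. With library totals alone the all-gene median was 0.32, the members' median 3.68 and the count 31. A fit of the Mix and BPA groups alone called 14. Leaving out BPA library 2 left 5 members (Capza3, Fhl4, Pgk2, Prm1 and Smcp) and leaving out BPA library 3 left 8. These 5 were called in every one of the 9 omissions. With the replicate number as a block over all 9 libraries, 30 were called: the same 24 and Oaz3, Gapdhs, Acr, Ropn1, Tssk2 and Tekt2. Equal replicate numbers name different rats, which nothing in the labels ties, so this is not a paired comparison. The share of all genes called under these other settings and omissions is not given here. Their counts show only how far the 24 moved.

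Prm1 had the smallest adjusted p, with 32.8, 17.1 and 22.992 CPM in the vehicle, 4.86, 3.51 and 3.22 CPM in the BPA and 84.9, 72.2 and 56.3 CPM in the Mix libraries. The 3 groups were apart, and Mix exceeded BPA by 3.89 ± 0.35 on the log2 scale (SE; adjusted p = 0.000803). Pgk2, the sperm phosphoglycerate kinase, had 13.0, 7.54 and 8.09 CPM in the vehicle, 0.347, 1.00 and 0.460 CPM in the BPA and 28.3, 17.7 and 15.2 CPM in the Mix libraries, also without overlap. Its difference was 4.78 ± 0.50 on the log2 scale (SE; adjusted p = 0.00142). Fhl4 had 14.2, 6.17 and 9.97 CPM in the vehicle, 0.868, 0.669 and 0 CPM in the BPA and 21.8, 23.1 and 18.2 CPM in the Mix libraries, and differed by 5.07 ± 0.61 on the log2 scale (SE; adjusted p = 0.00322). Smcp, of the sperm mitochondrial capsule, had 47.4, 32.6 and 35.3 CPM in the vehicle, 10.4, 3.18 and 8.28 CPM in the BPA and 120.4, 75.7 and 84.6 CPM in the Mix libraries, and the groups were apart once more. Mix exceeded BPA for Smcp by 3.32 ± 0.43 on the log2 scale (SE; adjusted p = 0.0051). Spem1 was at 8.14, 4.80 and 5.51 CPM in the vehicle, 2.08, 0.836 and 1.38 CPM in the BPA and 39.5, 17.3 and 17.7 CPM in the Mix libraries, and differed by 3.80 ± 0.53 on the log2 scale (SE; adjusted p = 0.00833). Capza3 had no count in the 3 BPA libraries, which allows up to 0.521 CPM (3 counts) in a library. Its other values were 3.19, 1.27 and 3.28 CPM with vehicle and 7.33, 5.99 and 6.11 CPM with Mix. Capza3 was thus at least 12.4-fold higher with Mix (adjusted p = 0.00833). With Capza3 at this bound of 3.64 on the log2 scale the median was unchanged, since the bound is above it.

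By role, the called members in this comparison took in all 4 nuclear packaging genes: Tnp1 differed by 3.60 ± 0.61 on the log2 scale (SE; adjusted p = 0.0119), Tnp2 by 4.04 ± 0.66 on the log2 scale (SE; adjusted p = 0.0115) and Prm2 by 4.72 ± 1.02 on the log2 scale (SE; adjusted p = 0.0316). Of these 4 genes only Prm1 was called in every omission of a single library. Tnp1 and Tnp2 were lost without BPA library 2 or 3. Prm2 was lost in every omission but that of Mix library 1. It was also lost with the 2 groups alone and with the ribosomal RNA share as a covariate. The called members also took in the tail genes Odf1, Odf2, Akap3, Akap4, Meig1 and Spem1 and the metabolic genes Pgk2, Ldhc, Smcp and Spata19. Crisp2, Dkkl1, Acrbp, Spaca1 and Izumo1 were the called acrosome and surface genes. Actl7a, Actl7b, Capza3, Fhl4 and Gsg1 made up the rest. Not called were among others Acr, at 5.06, 0.685 and 3.05 CPM in the vehicle, 4.17, 0.167 and 2.30 CPM in the BPA and 27.5, 5.99 and 17.0 CPM in the Mix libraries, and Cabyr, at 11.2, 13.3 and 7.86 CPM in the vehicle, 8.68, 12.5 and 8.59 CPM in the BPA and 14.9, 10.508 and 15.9 CPM in the Mix libraries. Cabyr overlapped between all groups and had a difference of 0.17 ± 0.29 on the log2 scale (SE; adjusted p = 0.848).

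BPA against vehicle in male kidney called 3 of 37 members, all lower, where 0.0909% of all genes were called lower, 0.0455% higher and 0.136% in either direction. The differences were -3.60 ± 0.50 on the log2 scale (SE; adjusted p = 0.0426) for Pgk2, -2.26 ± 0.34 on the log2 scale (SE; adjusted p = 0.0428) for Prm1 and -3.94 ± 0.61 on the log2 scale (SE; adjusted p = 0.0428) for Fhl4. In each of these genes the 3 BPA libraries were below the 3 vehicle libraries. The Tnp1 difference of -1.81 ± 0.57 on the log2 scale (SE; adjusted p = 0.121) did not pass. The members' median was -1.88 against 0.010 over all genes, and 34 of 37 differences were negative. None of the 3 calls remained without vehicle library 1 or 3 or BPA library 2 or 3, and 12 members were called without Mix library 1. The share of all genes called in that omission is not given here, so the 12 is no result about the members.

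Mix against vehicle called 0 of 37 members, where 0.0182% of all genes were called higher, 0.00909% lower and 0.0273% in either direction, although 36 of 37 differences were positive and the median was 1.38 against 0.035. Without adjustment 23 members were under 0.05, and DESeq2 called 3 (Prm1, Spem1 and Akap3). Neither count has the count over all genes beside it, so they are no result about the members. Prm1, Spem1 and Akap3 also had the smallest p-values with edgeR. Prm1 differed by 1.63 ± 0.30 on the log2 scale (SE; adjusted p = 0.184) and Spem1 by 2.11 ± 0.46 on the log2 scale (SE; adjusted p = 0.273). Akap3 had 14.2, 10.472 and 16.8 CPM in the vehicle, 7.81, 2.34 and 1.69 CPM in the BPA and 78.8, 26.9 and 38.2 CPM in the Mix libraries, and the Mix libraries were above the vehicle libraries by 1.90 ± 0.53 on the log2 scale (SE; adjusted p = 0.438). The 3 male kidney comparisons share libraries with each other. In each of them the members also share libraries, so their signs and counts are not separate evidence.

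**Figure D3:**
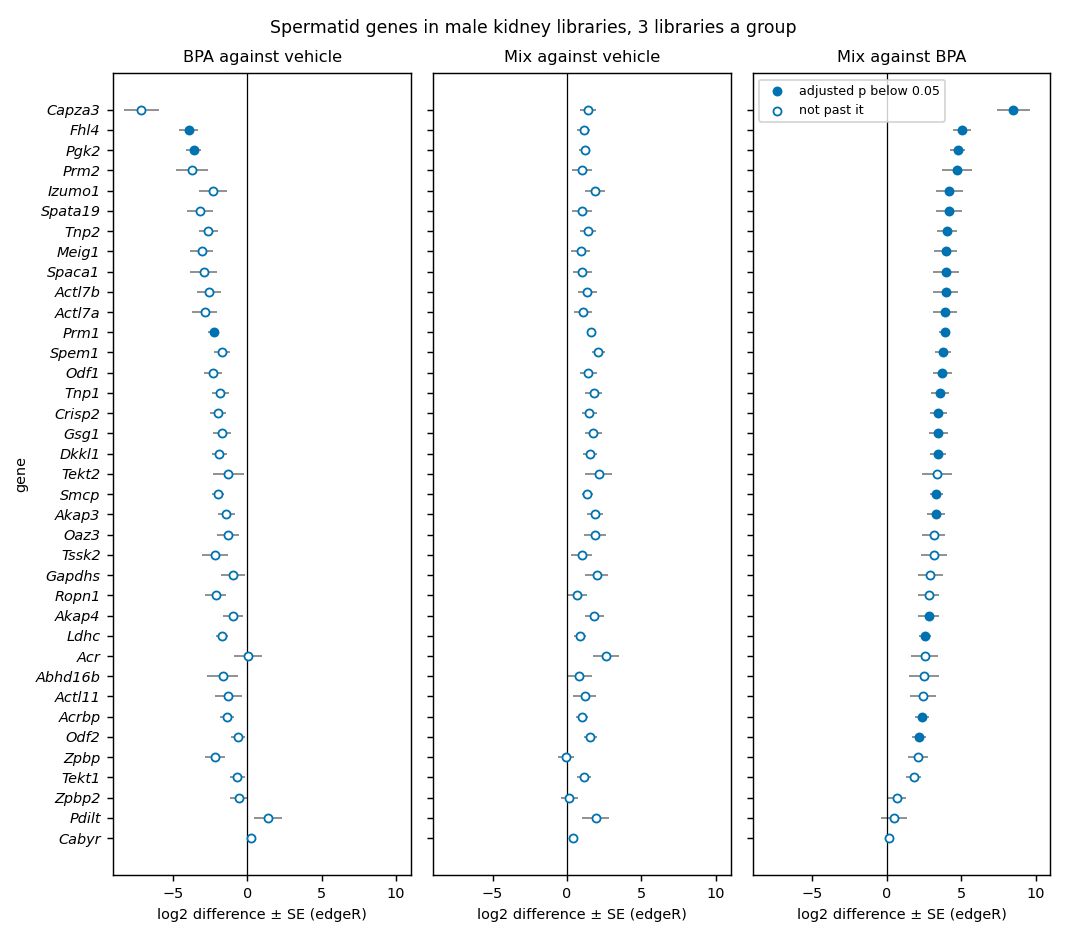
Log2 differences of 37 genes in male kidney (x axis, edgeR estimate, bar 1 SE) in the 3 comparisons, with filled points where the adjusted p was below 0.05. All 37 points are right of 0 for Mix against BPA and 24 are filled; the position of Capza3 depends on the prior count, since it had no count with BPA.

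Genes of other testis cells were examined beside them. For Mix against BPA, 13 of 28 other spermatid genes tested, 7 of 12 genes of transcription and RNA storage and 3 of 8 meiotic genes (Mael, Ccna1 and Tdrd1) were called higher, and 0 lower. Of the spermatogonia, Sertoli and Leydig lists 0 were called by edgeR in this comparison, and 4, 0 and 0 were under 0.05 unadjusted. Insl3, the Leydig marker highest in testis, had 0 CPM in the 3 BPA kidneys and 0.204 to 1.73 CPM in the Mix kidneys, against 116 to 279 CPM in testis. Among 10 genes of motile cilia Dnai2 was called higher, and among 7 epididymal genes Defb1 was called lower, with a difference of -0.91 ± 0.17 on the log2 scale (SE; adjusted p = 0.0168). Of the other 6 epididymal genes, 5 or 6 were at 0 in each Mix kidney library, and Defb1 carried nearly all of the list's 279 to 402 CPM there. The 5 kidney markers together were at 6267 to 7959 CPM with vehicle, 4311 to 5981 with BPA and 5127 to 6389 with Mix, and 0 of them were called by edgeR, with 2 under 0.05 unadjusted. The ribosomal RNA share was highest in the BPA libraries, on average 30.2% against 2.58% with vehicle and 9.22% with Mix. With that share as a covariate 23 members were called for Mix against BPA, and 19 of them were among the 24 called without it. Actl7a, Meig1, Prm2, Spaca1 and Spata19 were lost, and Oaz3, Acr, Gapdhs and Tekt2 were gained. For BPA against vehicle 1 member, Smcp, was called with the covariate, and Fhl4, Pgk2 and Prm1 were lost.

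In male thyroid 1 library stood apart. Tnp1 was at 21.8, 221 and 521 CPM in the vehicle, 9908, 47.8 and 7.85 CPM in the BPA and 5.26, 15.9 and 7.80 CPM in the Mix libraries, and BPA library 1 was far above the other 8. Its summed members were at 33.5% of the vehicle testis level, or 41.0% without Tnp1, and all 39 members had at least 10 counts. Other testis genes were high in the same library: the other spermatid genes were at 37.9%, the meiotic genes at 32.6% and the Leydig markers at 48.8% of vehicle testis, with Insl3 at 86.3 CPM. Insl3 was at most 2.31 CPM in the other 8 male thyroid libraries. The thyroid hormone precursor gene Tg had its lowest level of the 9 male thyroid libraries there.

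Relative to Tnp1, and to the same ratio in vehicle testis, the members of that library ran from 1.05 for Actl7b to 5.76 for Acr, with a median of 1.58. Acrv1 was at 5.19, Prm1 at 3.34 and Prm2 at 3.07 times the testis ratio. Prm1 was at 0.818, 24.035 and 103 CPM in the vehicle, 2439, 9.35 and 0.112 CPM in the BPA and 1.43, 2.97 and 3.31 CPM in the Mix libraries. The Pearson r over the 39 genes between log2(CPM + 1) in this library and in vehicle testis was 0.973. These genes share 1 library, and r is a description.

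With 34 members tested, 0 were called in any male thyroid comparison, as were 0% of the 11119 genes in each of the 3. For BPA against vehicle the smallest p-values were those of Zpbp, Tekt1 and Ldhc. Zpbp had 0, 0.431 and 1.70 CPM in the vehicle, 121, 1.37 and 0.449 CPM in the BPA and 0.478, 0.297 and 0 CPM in the Mix libraries. Tekt1 stood at 1.36, 5.93 and 4.85 CPM in the vehicle, 122, 3.62 and 1.91 CPM in the BPA and 4.42, 5.95 and 4.63 CPM in the Mix libraries. For both genes BPA library 1 was the highest and the groups overlapped. Ldhc was at 3.27, 8.51 and 11.9 CPM in the vehicle, 524, 2.99 and 1.57 CPM in the BPA and 0.956, 0.743 and 0.397 CPM in the Mix libraries. Its difference of 4.59 ± 1.79 on the log2 scale (SE; adjusted p = 0.586) turned to -1.65 without BPA library 1, and that of Tekt1, 3.49 ± 1.36 on the log2 scale (SE; adjusted p = 0.586), to -0.43. For Mix against vehicle Tnp1, Tnp2 and the kinase gene Tssk2 were first. Tnp2 had 1.77, 11.9 and 31.8 CPM in the vehicle, 619, 6.11 and 0.112 CPM in the BPA and 0.597, 0.892 and 0.265 CPM in the Mix libraries, and Tssk2 1.23, 5.39 and 11.3 CPM in the vehicle, 247, 0 and 0.112 CPM in the BPA and 0.239, 0 and 0.132 CPM in the Mix libraries. Each Mix library was below each vehicle library for Tnp1, with a difference of -4.74 ± 2.18 on the log2 scale (SE; adjusted p = 0.922). For Mix against BPA the first were Ldhc, Tnp2 and Tnp1, with a Tnp1 difference of -8.56 ± 2.57 on the log2 scale (SE; adjusted p = 0.304). Without adjustment 11 members were under 0.05 for BPA against vehicle, 0 for Mix against vehicle and 33 for Mix against BPA. No count over all genes is given beside these counts. Members share their libraries, and BPA library 1 held by far the most Tnp1, so these members are not separate evidence. DESeq2 called 0 in each, and leaving out any 1 library also gave 0 calls.

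Female thyroid reached the highest levels of these transcripts among the female organs. Tnp1 was at 2929, 1509 and 0.126 CPM in the vehicle, 8.22, 7.39 and 339 CPM in the BPA and 168, 6.17 and 14.2 CPM in the Mix libraries. Vehicle libraries 1 and 2 were the highest and vehicle library 3 the lowest of the 9, so the vehicle group spanned the treated groups. The summed members reached 6.58% of vehicle testis in vehicle library 1. In the same 3 vehicle libraries the liver gene Alb was at 2804, 850.4 and 51.5 CPM, and in the treated libraries at 7.51 to 98.5 CPM. Insl3 was at 13.1, 5.28 and 0 CPM. The Y-linked gene Eif2s3y was at 2.42, 1.51 and 0 CPM in the vehicle libraries, at 0 in the 6 treated ones, and at 8.75 to 47.1 CPM in male thyroid. Their part in the results was not tested.

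Of 31 members tested, 0 were called in any female thyroid comparison, where 0%, 0.00899% and 0% of all 11127 genes were called for BPA and for Mix against vehicle and for Mix against BPA, in that order. The smallest p-values against vehicle were those of Acr, Ldhc and Odf2 for BPA, and of Acr, Odf2 and Tekt2 for Mix. Acr had 58.9, 48.1 and 0 CPM in the vehicle, 1.13, 0.443 and 4.86 CPM in the BPA and 3.45, 2.06 and 1.09 CPM in the Mix libraries. Odf2, also a centrosome gene in other cells, had 169, 90.8 and 4.02 CPM in the vehicle, 9.50, 5.17 and 34.4 CPM in the BPA and 21.8, 8.07 and 12.9 CPM in the Mix libraries. Both were highest in vehicle libraries 1 and 2. The Acr differences were -4.11 ± 1.49 on the log2 scale (SE; adjusted p = 0.335) for BPA and -3.97 ± 1.49 on the log2 scale (SE; adjusted p = 0.152) for Mix. Ldhc was at 68.5, 59.3 and 0 CPM in the vehicle, 1.99, 0.887 and 6.36 CPM in the BPA and 9.24, 0.949 and 2.49 CPM in the Mix libraries. Tekt2 was at 17.5, 28.4 and 3.52 CPM in the vehicle, 1.70, 0.296 and 9.10 CPM in the BPA and 3.13, 3.48 and 1.25 CPM in the Mix libraries. Vehicle libraries 1 and 2 again stood above the rest for Ldhc. For Mix against BPA the first genes were Zpbp2, Zpbp and Izumo1, each with overlapping groups. Zpbp2 was at 8.48, 11.2 and 0 CPM in the vehicle, 5.95, 2.96 and 5.61 CPM in the BPA and 1.88, 4.11 and 1.56 CPM in the Mix libraries. Zpbp was at 9.29, 15.964 and 0 CPM in the vehicle, 0, 0 and 1.99 CPM in the BPA and 0.313, 0 and 0.468 CPM in the Mix libraries. Izumo1, the fusion protein gene, was at 7.27, 6.16 and 0 CPM in the vehicle, 0.284, 1.03 and 1.25 CPM in the BPA and 3.92, 0.633 and 0 CPM in the Mix libraries. Unadjusted, 6, 8 and 0 members were under 0.05 in the same order of comparisons, and DESeq2 called 0, 2 and 0. These counts stand without those over all genes and are no result about the members. Without vehicle library 3, Acr was called lower in both treatments (the 2 of DESeq2 were Acr and Odf2). With vehicle libraries 1 and 2 both left out, a choice made after the data were seen, Tekt1 and Zpbp2 were called in both comparisons with the lone remaining vehicle library, which was assumed to vary like the others.

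Ovary showed the same division of the vehicle group. Tnp1 was at 218, 440.5 and 0.433 CPM in the vehicle, 46.2, 0.543 and 4.10 CPM in the BPA and 2.47, 23.2 and 2.40 CPM in the Mix libraries, and vehicle libraries 1 and 2 were the highest and library 3 the lowest. These were the rats whose thyroid was high or low: in the order of vehicle libraries 1, 2 and 3, Tnp1 was at 2929, 1509 and 0.126 CPM in thyroid, 218, 440.5 and 0.433 CPM in ovary and 17.7, 3.77 and 0.525 CPM in liver. Alb was at 143, 194 and 1.88 CPM in these ovaries and at 1.48 to 64.4 CPM in the treated ones.

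For Mix against vehicle in ovary 4 of 22 members tested were called lower, where 4.99% of the 10871 genes were called lower, 4.13% higher and 9.12% in either direction. The 4 were Crisp2, Oaz3, Fhl4 and Odf1. Crisp2 had 25.7, 45.5 and 0.144 CPM in the vehicle, 4.98, 0 and 1.15 CPM in the BPA and 0, 1.28 and 0 CPM in the Mix libraries, and Oaz3 48.6, 90.1 and 0 CPM in the vehicle, 9.15, 0 and 0.820 CPM in the BPA and 0.411, 2.18 and 1.28 CPM in the Mix libraries. In both genes the highest values were those of vehicle libraries 1 and 2, and vehicle library 3 was within the range of the treated groups. Fhl4 was at 6.23, 13.8 and 0.577 CPM in the vehicle, 2.56, 0.362 and 0.983 CPM in the BPA and 0.137, 0 and 0.960 CPM in the Mix libraries, and Odf1 at 35.1, 66.3 and 0 CPM in the vehicle, 8.62, 0.181 and 0.983 CPM in the BPA and 0, 2.30 and 0 CPM in the Mix libraries. The differences were -5.82 ± 1.52 on the log2 scale (SE; adjusted p = 0.0326) for Crisp2, -5.31 ± 1.43 on the log2 scale (SE; adjusted p = 0.0372) for Oaz3, -4.45 ± 1.23 on the log2 scale (SE; adjusted p = 0.0411) for Fhl4 and -5.51 ± 1.56 on the log2 scale (SE; adjusted p = 0.0448) for Odf1. The Tnp1 difference was -4.69 ± 1.51 on the log2 scale (SE; adjusted p = 0.071). The members' median was -3.35 against 0.013 over all genes, and 0.18 over all genes with library totals alone. None of the 4 was called without vehicle library 1 or 2, without both, without Mix library 1 or 3, or with the ribosomal RNA share as a covariate. Leaving out vehicle library 3 gave 15 calls and leaving out BPA library 1 gave 10. The share of all genes called in these omissions is not given here, so the counts are no result about the members.

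BPA against vehicle in ovary called 0 of 22 members, where 3.88% of all genes were called lower, 2.91% higher and 6.79% in either direction, and 10 without vehicle library 3. The first were Oaz3, Crisp2 and the acrosome gene Dkkl1, which had 19.3, 27.4 and 0.577 CPM in the vehicle, 5.25, 0 and 0.328 CPM in the BPA and 0.823, 2.94 and 1.44 CPM in the Mix libraries. Their differences were -4.07 ± 1.29 on the log2 scale (SE; adjusted p = 0.0786), -3.81 ± 1.28 on the log2 scale (SE; adjusted p = 0.0946) and -3.35 ± 1.16 on the log2 scale (SE; adjusted p = 0.104). Without adjustment 13 members were under 0.05 for BPA against vehicle, and DESeq2 called 0. The 13, and the 10 without vehicle library 3, stand without the count over all genes. They are no result about the members. Mix against BPA called 0 members with edgeR and with DESeq2, and 0 were under 0.05 unadjusted, where 0.212% of all genes were called. Its first gene was Gapdhs, the sperm glyceraldehyde phosphate dehydrogenase, at 9.64, 22.6 and 0.866 CPM in the vehicle, 7.00, 11.4 and 7.70 CPM in the BPA and 3.84, 3.71 and 3.52 CPM in the Mix libraries, followed by Fhl4 and Crisp2. Gapdhs differed by -1.12 ± 0.73 on the log2 scale (SE; adjusted p = 0.591).

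In male liver Tnp1 was at 5.35, 37.3 and 41.2 CPM in the vehicle, 2.38, 2.11 and 14.967 CPM in the BPA and 13.6, 35.3 and 39.7 CPM in the Mix libraries, and the groups overlapped. Of 15 members tested, 0 were called, where 0.228%, 0.321% and 0.0103% of the 9669 genes were called for BPA and for Mix against vehicle and for Mix against BPA, in that order. For BPA against vehicle Tnp2, Crisp2 and Tnp1 came first. Tnp2 had 0.721, 2.03 and 2.65 CPM in the vehicle, 0, 0 and 0.440 CPM in the BPA and 0.835, 2.53 and 4.18 CPM in the Mix libraries, lower in each BPA library than in each vehicle library. Crisp2 had 0.515, 4.24 and 3.49 CPM in the vehicle, 0, 0.352 and 0.734 CPM in the BPA and 0.522, 2.66 and 2.53 CPM in the Mix libraries. Tnp1 differed by -2.05 ± 0.72 on the log2 scale (SE; adjusted p = 0.541). For Mix against BPA the first were Tnp2, with a difference of 4.07 ± 1.07 on the log2 scale (SE; adjusted p = 0.319), Gsg1 and Oaz3. Gsg1 was at 1.54, 6.27 and 3.86 CPM in the vehicle, 0, 0.117 and 1.91 CPM in the BPA and 1.77, 6.97 and 7.69 CPM in the Mix libraries. Oaz3 was at 1.34, 8.40 and 3.74 CPM in the vehicle, 1.19, 0.235 and 3.52 CPM in the BPA and 4.59, 11.4 and 9.34 CPM in the Mix libraries. Oaz3 was higher in each Mix than in each BPA library, and Gsg1 overlapped. Unadjusted, 6 members were under 0.05 for BPA and 0 for Mix against vehicle and 9 for Mix against BPA, where DESeq2 called 0, 0 and 1 (Tnp2). Without the filter on low counts 5 members were called for Mix against BPA (Tnp1, Gsg1, Oaz3, Odf1 and Tnp2). The unadjusted, DESeq2 and unfiltered counts stand without those over all genes and are no result about the members. For Mix against vehicle Oaz3, Zpbp2 and Akap4 came first, with an Oaz3 difference of 1.03 ± 0.63 on the log2 scale (SE; adjusted p = 0.844). Zpbp2 was at 3.40, 4.52 and 3.37 CPM in the vehicle, 4.44, 3.05 and 3.82 CPM in the BPA and 1.46, 2.66 and 2.64 CPM in the Mix libraries, and Akap4 at 0.927, 0.738 and 1.33 CPM in the vehicle, 0, 0 and 1.03 CPM in the BPA and 0.835, 2.53 and 3.63 CPM in the Mix libraries.

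Female liver and female kidney had the fewest members past the filter on low counts. Tnp1 in female liver was at 17.7, 3.77 and 0.525 CPM in the vehicle, 0.224, 0.367 and 0.165 CPM in the BPA and 1.79, 5.56 and 1.81 CPM in the Mix libraries. The 3 BPA values were below the other 6, and BPA differed from vehicle by -4.87 ± 1.07 on the log2 scale (SE; adjusted p = 0.0699). The BPA libraries held only 2, 3 and 1 counts of Tnp1, at or under the floor of 3 counts. The vehicle libraries held 147, 28 and 4, so BPA and vehicle library 3 were apart by very few reads. Of 4 members tested, 0 were called, where 0.419%, 0.0523% and 0% of the 9554 genes were called for BPA and for Mix against vehicle and for Mix against BPA, in that order. Without the filter, or without vehicle library 3, Tnp1 was called lower in BPA. The other 3 tested were Odf2 at 7.84, 5.25 and 6.43 CPM in the vehicle, 1.79, 4.28 and 4.28 CPM in the BPA and 5.37, 3.79 and 2.65 CPM in the Mix libraries, Cabyr at 2.89, 2.29 and 1.44 CPM in the vehicle, 0.783, 3.55 and 0.494 CPM in the BPA and 1.55, 4.29 and 3.85 CPM in the Mix libraries and Zpbp2 at 3.25, 3.63 and 2.49 CPM in the vehicle, 2.01, 4.89 and 4.61 CPM in the BPA and 2.98, 2.40 and 1.93 CPM in the Mix libraries. For Odf2 each BPA library was below each vehicle library, and Mix overlapped with vehicle. Unadjusted, 2 members were under 0.05 for BPA and 0 for Mix against vehicle and 1 for Mix against BPA, and DESeq2 called 0 in each. The unadjusted counts stand without those over all genes and are no result about the members. In female kidney Tnp1 was at 1.14 and 0.186 CPM in the vehicle, 0.709 and 16.7 CPM in the BPA and 24.9, 6.03 and 0.152 CPM in the Mix libraries, and the groups overlapped. The Tnp1 difference was 3.61 ± 1.94 on the log2 scale (SE; adjusted p = 0.386) for BPA and 3.79 ± 1.85 on the log2 scale (SE; adjusted p = 0.508) for Mix against vehicle. Of 8 members tested, 0 were called, as were 0% of the 10681 genes in each comparison; unadjusted, 0 were under 0.05, and DESeq2 called 0. Cabyr, with the second smallest p for BPA against vehicle, was at 5.05 and 12.5 CPM in the vehicle, 4.96 and 5.83 CPM in the BPA and 8.91, 9.13 and 7.00 CPM in the Mix libraries, and Acrbp at 1.63 and 1.49 CPM in the vehicle, 2.30 and 3.54 CPM in the BPA and 1.95, 2.41 and 3.80 CPM in the Mix libraries. Odf2 was at 6.52 and 9.11 CPM in the vehicle, 12.9 and 8.12 CPM in the BPA and 12.8, 6.54 and 17.8 CPM in the Mix libraries, Ldhc at 0.815 and 1.86 CPM in the vehicle, 0 and 1.25 CPM in the BPA and 2.37, 0 and 0.761 CPM in the Mix libraries and Zpbp2 at 2.12 and 5.21 CPM in the vehicle, 1.42 and 2.91 CPM in the BPA and 2.50, 2.07 and 4.41 CPM in the Mix libraries.

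Whether the 2 sexes differed in a treatment's effect was tested as an interaction in kidney, thyroid and liver. In each of 9 tests 0 members passed, where 4.73% of genes did for BPA against vehicle in kidney and at most 0.209% in the other 8. The member nearest the threshold was Smcp in kidney for BPA against vehicle, with a male minus female difference of -5.49 on the log2 scale (adjusted p = 0.0582). With no filter on low counts 3 members passed in that test.

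How closely the members kept the proportions of testis differed between libraries, as did the number of member reads. The BPA male kidneys held 700 to 2449 member counts, and 14 to 24 members had at least 10 counts. In the vehicle and Mix male kidneys these were 6000 to 17960 and 32 to 37. The median ratio below takes only members with at least 10 counts. The part of read number in r and in this ratio was not tested. Over the 31 libraries with at least 100 counts of Tnp1, r with vehicle testis was 0.598 to 0.978. It was 0.922 to 0.969 in the vehicle and Mix male kidneys, 0.610 to 0.833 in the BPA male kidneys, 0.690 to 0.933 in 4 ovaries, 0.914 to 0.978 in 4 female thyroids, 0.598 to 0.973 in 6 male thyroids and 0.618 to 0.835 in 6 male livers. The 1 female kidney and the 1 female liver had 0.684 and 0.701. The median ratio of a member to Tnp1, over that in vehicle testis, was 0.836 to 1.08 in the Mix male kidneys, 1.19 to 1.38 with vehicle and 1.42 to 3.14 with BPA. It ran from 0.765 to 5.36 in male thyroid, where the highest values were those of Mix library 2 and, at 4.59, vehicle library 1, and from 1.20 to 2.87 in male liver.

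**Figure D4:**
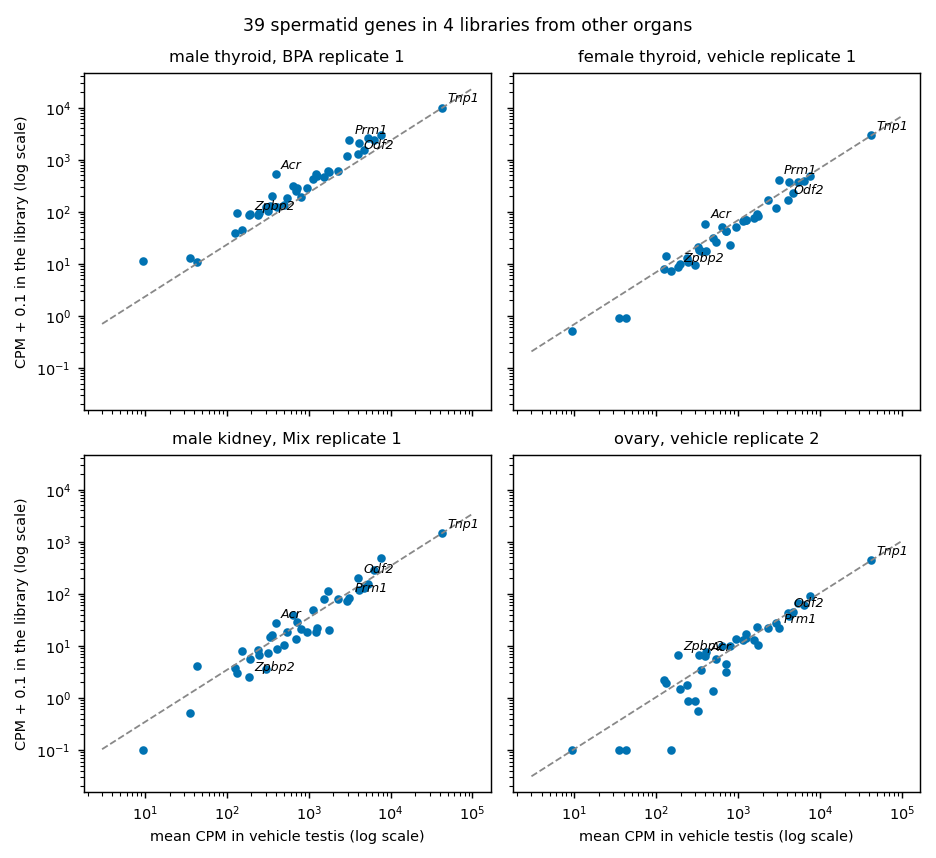
CPM + 0.1 of the 39 genes in 4 libraries from other organs (y axis, log scale) against their mean CPM in vehicle testis (x axis, log scale). Each library is the one with the most Tnp1 for its organ and sex. The dashed line passes through the ratio of Tnp1, with Acr and Prm1 above it in male thyroid BPA replicate 1.

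The ratio of Tnp1 to Prm1 spanned different ranges by organ, and no test was run on it. It was 4.06 to 9.20 in the 5 male thyroid libraries that had at least 100 counts of Tnp1 and 10 of Prm1, 7.15, 7.96, 18.5 and 6.16 in 4 female thyroid libraries, and 9.24 to 29.5 in the 9 male kidneys, against 8.44 to 29.2 in testis. Within some rats the ratios were close: the rat of vehicle library 2 had 10.2 in testis, 12.9 in kidney, 12.6 in liver and 9.20 in thyroid, and that of Mix library 2 had 11.1 in testis, 10.4 in kidney and 10.3 in liver, but 5.35 in thyroid. In other rats, with each treatment, they lay further apart. The rat of vehicle library 3 had 13.3 in testis, 15.5 in kidney, 31.1 in liver and 5.06 in thyroid. That of Mix library 3 had 8.44 in testis, 17.2 in kidney and 21.2 in liver. These liver ratios rest on 11 and 17 counts of Prm1. In the rats of BPA libraries 1, 2 and 3 the ratio was 10.4, 29.2 and 27.0 in testis and 29.5, 9.24 and 9.48 in kidney. The BPA kidney ratios rest on 28, 21 and 21 counts of Prm1. The rat with 10.4 in testis had 4.06 in thyroid, and the one with 29.2 had 5.11.

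**Figure D5:**
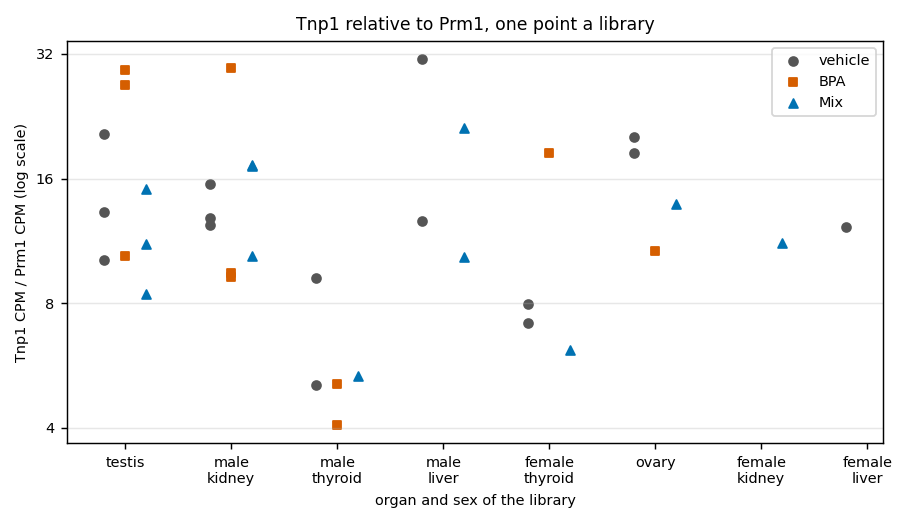
Ratio of Tnp1 to Prm1 CPM on a log axis in the 9 testis libraries and 28 libraries of other organs with enough counts, 1 point per library. The male thyroid points, 4.06 to 9.20, reach below the testis points, 8.44 to 29.2, and 4 of the 5 lie below all of them, as do 3 of the 4 female thyroid points.

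A few members exceeded what Tnp1 would give. Only the 31 libraries outside testis with at least 100 counts of Tnp1 were examined. Of 768 pairs of a member and such a library with at least 10 counts of the member, 30 pairs had more than 10 times the testis ratio to Tnp1. They covered 8 members. Tnp1 is itself among the 768 pairs, where its ratio is fixed by definition. Zpbp2 did so in 12 libraries of 4 organs, at 1.46 to 4.85 CPM, including all 6 male livers examined. Cabyr did so in 7 libraries at 2.69 to 12.5 CPM. In male kidney it was at 11.2, 13.3 and 7.86 CPM in the vehicle, 8.68, 12.5 and 8.59 CPM in the BPA and 14.9, 10.508 and 15.9 CPM in the Mix libraries, a span of 7.86 to 15.9 CPM where Tnp1 spanned 30.5 to 1462 CPM. The tektins Tekt1 and Tekt2 did so in 3 libraries each, of thyroid and ovary, at 5.76 to 7.40 and 2.23 to 4.71 CPM. In ovary Tekt1 was at 4.89, 7.69 and 4.04 CPM in the vehicle, 7.40, 8.88 and 2.13 CPM in the BPA and 3.43, 5.76 and 8.48 CPM in the Mix libraries, and the vehicle library lowest in Tnp1 was within the range of the others. Acrbp did so in 2 male thyroid libraries, at 5.05 and 7.91 CPM, and Acr (male thyroid), Actl7a (female liver) and Pdilt (male kidney) in 1 each, at 2.05, 1.21 and 1.69 CPM. The other 31 members did not exceed that ratio in any examined library where they had at least 10 counts. Tnp1, among these 31, could not exceed it by definition. Pairs with fewer than 10 counts of the member were not assessed. Libraries with fewer than 100 counts of Tnp1 were left out, so nothing is said of them.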

How the data were processed

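Total RNA was extracted with TRIzol and sequenced after QuantSeq 3′ library preparation, per the labels' protocols. The submitters' processing notes name the rat build rn6 and, without versions, FastQC, Bowtie2, bedtools and edgeR; strand use and the treatment of reads with several alignments are not given in the sources used here, so counts of overlapping genes and near-identical copies are uncertain. The authors deposited raw counts per gene, 17048 rows for 70 libraries with 4803807 to 10929957 counts each, and no column belonged to other samples. Symbols matched 39 of the 40 members; Catsper1 was not analysed here.

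Each of the 8 combinations of organ and sex was fitted with edgeR 4.0.16 in R 4.3.3 (filterByExpr, TMM, quasi-likelihood F test, 3 treatments sharing 1 dispersion estimate), which was tested on simulated data. Adjusted p-values are Benjamini-Hochberg values over every gene tested in a comparison, and the threshold was 0.05. Outside testis, counts of members under 0.05 unadjusted are given without the count over all genes. They are therefore no result about the members. The SE is the log2 difference divided by the square root of F, and intervals are 95%. The levels printed are plain CPM; differences are edgeR's. All intervals and floors (3 counts) cover counting error or the spread between the rats only. Members and gene lists were chosen with earlier results of these data known. Members were named by rule: in each comparison up to 6 each way among those that passed, otherwise the 3 with the smallest p, in testis also the 5 highest and 3 lowest, and outside testis those above 10 times the testis ratio to Tnp1. Genes of other lists were named as the 2 with the most counts in testis or where at most 4 passed; Umod, Alb, Tg and Eif2s3y were named after their values were seen. Alternatives were DESeq2 1.42.0, other scalings, no filter, replicate numbers as a block, the ribosomal RNA share as a covariate, 2 groups alone and omission of each library. Counts of members called under them are given without the share of all genes called there. They show only how far the reported counts moved. Start regions are RefSeq's for GRCr8, a build other than that of the counts. Protein sequences were not used here. Deviations of libraries with the same replicate number were correlated to see whether they varied together. The correlation was over 0.1 in every pair for BPA and Mix in male kidney (0.112 to 0.222) and for no other pair of groups. Nothing in the labels ties these rats. No fit reported as main was paired, and the replicate block was run as an alternative only.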

Additional observations from a re-analysis of the deposited data

Results flagged for a closer look

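Mix against vehicle ran in opposite directions in 2 organs of the same male rats. In kidney each Mix library had more Tnp1 (751 to 1462 CPM) than each vehicle library (220.1 to 404 CPM), a log2 ratio of means of 1.70. In thyroid each Mix library had less Tnp1 (5.26 to 15.9 CPM) than each vehicle library (21.8 to 521 CPM), a log2 ratio of -4.72. The ratios lay 6.42 apart. For the summed members the ratios were 1.56 in kidney and -3.30 in thyroid, 4.86 apart. Neither difference was tested, and 0 members were called in either comparison by edgeR with its settings as reported. In kidney edgeR called 1 member (Prm1) with no filter on low counts and 5 with the replicate block. The ribosomal RNA share was 2.58% with vehicle and 9.22% with Mix in kidney, and 2.11% and 4.12% in thyroid; its part was not tested.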

How the results depend on the processing

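Over settings other than the omission of 1 library, counts of members called stayed within 1.5 times the reported count 145 times, went above it 22 times and below it 7 times. A count of 0 that stayed at 0 is among the 145, and most comparisons had 0 calls as reported. The 145 is therefore no measure of how steady the calls were. In testis, Mix against vehicle gave 1 call (Pdilt) with DESeq2 and 1 with no filter, and Mix against BPA gave 2 with the ribosomal RNA covariate and 0 with the 2 groups alone. In male kidney, BPA against vehicle gave 15 calls with DESeq2, 23 with library totals alone, 8 with no filter, 1 with the covariate and 11 with the 2 groups alone. Mix against vehicle there gave 3 with DESeq2 and 1 with no filter, and Mix against BPA 14 with the 2 groups alone. In female thyroid, Mix against vehicle gave 2 with DESeq2, and both comparisons with vehicle gave 2 with vehicle libraries 1 and 2 left out. In ovary, BPA against vehicle gave 3 with no filter, and Mix against vehicle gave 1 with DESeq2, 10 with no filter, 0 with the covariate and 0 with vehicle libraries 1 and 2 left out. In male liver, BPA against vehicle gave 1 with no filter, and Mix against BPA 1 with DESeq2 and 5 with no filter. In female liver, BPA against vehicle gave 1 with no filter and 1 with the covariate, and Mix against BPA 1 with no filter. The sex difference in kidney for BPA against vehicle gave 3 with no filter. The cause of these changes was not tested.

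With 1 library left out, calls ranged from 0 to 1 (testis, BPA against vehicle), 0 to 4 (testis, Mix against BPA), 0 to 12 (male kidney, BPA against vehicle), 5 to 28 (male kidney, Mix against BPA), 0 to 1 (female thyroid, each treatment against vehicle), 0 to 10 (ovary, BPA against vehicle), 0 to 15 (ovary, Mix against vehicle) and 0 to 1 (female liver, BPA against vehicle). The 15 other comparisons stayed at 0. In male kidney, BPA against vehicle gave 0 without vehicle 1 or 3 or BPA 2 or 3, 9 without BPA 1, 12 without Mix 1, 6 without Mix 2 and 1 without Mix 3. Ovary BPA against vehicle gave 10 without vehicle 3 and 3 without BPA 1. Single members whose log2 difference changed sign, none of them called as reported, ranged in female kidney from -0.068 to 5.69 (Tnp1, BPA against vehicle), -0.11 to 1.03 (Zpbp2, Mix against BPA) and -0.35 to 5.73 (Ldhc, Mix against BPA), in male thyroid for BPA against vehicle from -0.43 to 4.05 (Tekt1) and -1.65 to 5.16 (Ldhc), in female thyroid for Mix against BPA from -1.92 to 4.10 (Zpbp) and -1.22 to 1.43 (Izumo1), and in female liver for Mix against vehicle from -2.11 to 0.35 (Tnp1).

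Deviations of same-numbered libraries correlated at -0.386 to 0.231, and over 0.1 in 5 of 9 male kidney pairs, 3 of them between BPA and Mix. The replicate block gave 30 calls in male kidney for Mix against BPA, 0 in testis for Mix against BPA, 14 in male kidney for BPA against vehicle and 5 for Mix against vehicle, and turned Izumo1 in female thyroid, Mix against BPA, to -0.98. Omissions were not run for the sex interactions. Outside testis, values of a few counts limit what could be seen.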
